A study of Mus musculus with 26 samples.

Results

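P6 is a mouse skin cell line derived from a papilloma, a benign outgrowth of the epidermis, and it was set against the 3 lines of the series labelled as immortalised keratinocytes. These are C5N, NK and 1 more line, called here the third keratinocyte line, whose cell type label is keratinocyte although its keratinocyte flag is 0. A gene was chosen where P6 lay outside the range of all 3 keratinocyte lines by 1 log2 unit or more (a log2 unit is a doubling). This gave 373 genes of 11866 tested, of 18193 with a probe set. P6 was higher in 266 of them (2.24% of the genes tested) and lower in 107 (0.902%). These values chose the genes, so they are given as a description and support no test.

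The series holds 26 mouse skin lines, each on 1 Affymetrix M430 2.0 array, grown in serum and harvested in log phase: P6, 14 carcinoma lines and 8 carcinoma lines with a spindle label, and the 3 keratinocyte lines. The carcinoma lines counted beside P6 were the 11 with a value of 8 or more for Cdh1, which encodes the epithelial adhesion protein E-cadherin. They are PDV, PDVC57, B9, B9ras, B9rassmad, B9Smad, E4, SN161, MSCb1, MSCP1 and MSCP5, with Cdh1 between 8.49 and 11.78, and B9Smad carries the spindle label. By their titles, B9, B9ras, B9rassmad and B9Smad share a name, as do PDV and PDVC57. Lines of a shared name may be related, so the 11 may not be independent. MSCb1, MSCP1 and MSCP5 came from tumours of Spretus/CBA cross mice, and SN161 from a Spretus/NIH cross. No line has a second array, so P6 stands for papillomas as a single line. The labels give no animal age, passage number or batch. All values below are log2 values as deposited by the authors. Levels of different genes are not compared, because each probe set has its own brightness.

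Keratinocytes of the basal epidermis carry the keratin pair Krt5 and Krt14 and are held together by E-cadherin junctions and desmosomes. In mouse skin, papillomas are the benign step from which squamous carcinomas can arise, and the keratins made by the cells shift along the way. Keratinocytes also act as immune sentinels: they release cytokines, chemokines and antimicrobial proteins, many of them targets of the transcription factor NF-kB.

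The markers of the label were in place. Krt5 stood at 14.01 in P6, against 13.42 in C5N, 12.86 in NK and 13.97 in the third line. Krt14 stood at 14.35 in P6, against 13.99, 14.12 and 14.39. Cdh1 was 11.38 in P6, against 11.55, 11.60 and 10.46. P6 thus had the basal keratins and E-cadherin within 0.04 of the keratinocyte range. None of the tested genes that mark melanocytes (5), endothelium (5), leukocytes (6) or muscle (3) lay outside the range by 1 or more in P6, in either direction.

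P6 lay nearest to a carcinoma line, MSCP5, from which it differed by 1 or more in 1327 of the genes tested (Pearson r 0.919 across genes). The third keratinocyte line came next, with 1537 genes and r of 0.916, followed by B9 with 1801. C5N differed from P6 in 2144 genes and NK in 2603. Among themselves the keratinocyte lines differed in 1935 genes (C5N and NK), 2363 (the third line and C5N) and 2927 (the third line and NK). P6 was thus no farther from the third line than that line was from the other keratinocyte lines. The 11 carcinoma lines with Cdh1 of 8 or more differed from P6 in 1327 to 3102 genes (median 2384), and the 11 with Cdh1 under 8 in 2592 to 3584 (median 2923). The third line also sets much of the range: against C5N and NK alone, P6 was outside by 1 or more in 672 genes upwards and 387 downwards.

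**Figure D1:**
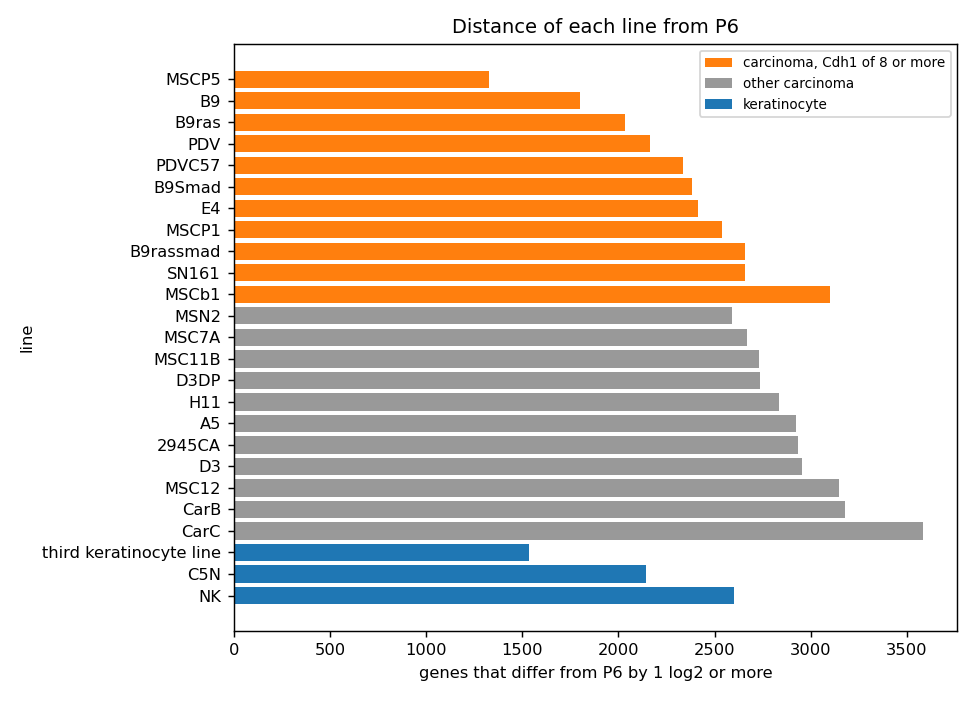
Number of genes tested that differ from P6 by 1 log2 or more (x axis), for each of the 25 other lines (y axis), in colours for carcinoma lines with Cdh1 of 8 or more, other carcinoma lines and keratinocyte lines. MSCP5 is nearest with 1327 genes, the third keratinocyte line has 1537, and CarC is farthest with 3584.

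The distances were uneven in the 2 directions. P6 was above the keratinocyte range at all in 2812 genes (23.7%) and below it in 2510 (21.2%). Past 1 unit the counts were 266 and 107, past 2 units 80 and 11, and past 4 units 15 and 2. The median distance was 1.58 above the range and -1.26 below it. At the edge, Il1f9 was counted with a distance of 1.005 and Fat2 was not with 0.996, and below the range Zfp930 was counted with -1.009 and Glcci1 was not with -0.993. Many of the higher genes started from the dark end of the array: 64 of the 266 (24.1%) were below the array median in all 3 keratinocyte lines. Genes were tested where 1 or more of the 4 arrays was above its median, so these 64 were tested only through P6. They raise the shares above the range, also in the lists below. With no filter, 275 of 18193 genes were above the range by 1 or more. Of the lower genes, 25 of the 107 (23.4%) were below the array median in P6. Near that end RMA values are mostly background, so a difference there understates the change in RNA. Another probe set of the same gene existed for 117 of the higher genes, and for 56 of them at least 1 such probe set was above the range by 1 or more, for 103 at any distance, while 11 had 1 or more on the opposite side. For the 64 lower genes with another probe set these counts were 26, 60 and 5.

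The gene farthest above the range was Tslp, a cytokine of epithelial cells that acts on dendritic cells. It stood at 11.59 in P6, between 4.02 and 8.70 in the 11 carcinoma lines with Cdh1 of 8 or more (median 6.46), and at 3.76 in C5N, 3.73 in NK and 5.20 in the third line. The keratinocyte mean was 4.23 ± 0.84 (SD, n = 3), which P6 exceeded 164-fold. P6 was 2.89 above the next of all 25 other lines, and 8 of the 11 carcinoma lines were above the keratinocyte range as well.

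Enzymes of sterol and retinoid metabolism were next. Cyp7b1, an oxysterol hydroxylase, had 11.42 in P6, 3.32 to 9.68 in the 11 carcinoma lines and 3.45, 5.35 and 3.62 in C5N, NK and the third line. Aldh1a1, which makes retinoic acid from retinaldehyde, had 10.38 in P6, 3.41 to 12.01 in the carcinoma lines, and 3.30, 3.92 and 4.38 in the same keratinocyte lines. For Aldh1a1 at least 1 carcinoma line was thus above P6, while for Cyp7b1 P6 led all other lines by 1.75. Aldh1a7, the neighbouring paralogue of Aldh1a1, was also above the range (7.27 in P6, against 3.19, 5.78 and 3.18), and probes for near-identical paralogues can share signal.

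Several of the leading genes were dark in every keratinocyte line. Clec2g, a C-type lectin, had 8.63 in P6, at most 6.57 in the carcinoma lines, and 2.94, 3.16 and 3.15 in C5N, NK and the third line. Cldn8, a claudin of tight junctions, had 8.29 in P6, at most 4.46 in the carcinoma lines, and 3.63, 4.01 and 3.45 in the keratinocyte lines. Wnt5a, a secreted Wnt ligand, had 8.73 in P6, a median of 6.88 in the carcinoma lines, and 4.0, 3.83 and 3.96 in the keratinocyte lines. Clec2g and Cldn8 were highest in P6 among all 26 lines, and Wnt5a was above the keratinocyte range in 10 of the 11 carcinoma lines. Glyat, a glycine acyltransferase, Sema6d, a semaphorin, and Hsd17b11, a hydroxysteroid dehydrogenase, were above the range by 4.15, 4.14 and 4.03. Tnfaip2, a gene induced by tumour necrosis factor, was above it by 4.51, and 10 of the 11 carcinoma lines shared that side, with a median of 9.72 close to the 9.81 in P6.

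Eif2s3y, a gene of the Y chromosome, was also among these, with 7.54 in P6 and 3.04, 3.11 and 3.14 in C5N, NK and the third line. Its Y-linked neighbour Kdm5d stood at 5.26 in P6, against 3.03, 2.86 and 2.87. Xist, the RNA of the inactive X chromosome, stood at 5.61 in P6, against 5.31 in C5N, 5.67 in NK and 13.12 in the third line. The lines thus differed in their sex-linked transcripts, and the part of this in other genes was not tested.

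Scd2, a stearoyl-CoA desaturase that makes monounsaturated fatty acids, was farthest below the range. It stood at 7.12 in P6, between 12.26 and 14.08 in the 11 carcinoma lines, and at 12.81, 12.91 and 13.88 in C5N, NK and the third line. The keratinocyte mean was 13.20 ± 0.59 (SD, n = 3), or 67.6-fold the level in P6, and both other probe sets of Scd2 were below the range by 1 or more as well. The next lowest of all lines was 4.81 above P6. The paralogue Scd1 was not lower: it had 12.24 in P6, against 10.73, 9.11 and 11.99.

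Genes of the extracellular matrix followed. Col8a1, a type VIII collagen chain, had 3.91 in P6, 7.39 to 12.68 in the carcinoma lines, and 8.35, 10.19 and 11.78 in C5N, NK and the third line. Fn1, which encodes fibronectin, had 7.52 in P6, a median of 12.39 in the carcinoma lines, and 10.95, 12.17 and 11.93 in the keratinocyte lines. Both were lower than the keratinocyte range in only 1 of the 11 carcinoma lines. Fn1 was the 1 gene of the 18 tested mesenchymal and fibroblast genes outside the range by 1 or more, while at any distance 1 was above it and 4 below. The mean level over that list was 5.77 in P6, against 5.63 to 6.36 in the keratinocyte lines.

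Other genes far below the range had varied roles. Tmem45a, a membrane protein, lay below it by 3.15 (distance -3.15), with 10 of the 11 carcinoma lines on the same side. Aldh3a1, an aldehyde dehydrogenase, had 4.16 in P6, against 7.22, 8.47 and 9.54. Igfbp2, which binds insulin-like growth factors, had 4.61 in P6, a median of 3.72 in the carcinoma lines, and 11.89, 12.43 and 6.47 in C5N, NK and the third line. For Igfbp2 the third line was much closer to P6 than the other keratinocyte lines were, and 9 of the 11 carcinoma lines were below the range. Kdelr3, a receptor that returns proteins to the endoplasmic reticulum, had a distance of -2.20, the vesicular monoamine transporter Slc18a2 -2.11, the protein kinase A inhibitor Pkia -2.11 and the beta-tubulin Tubb3 -2.08. The distances of 6820431F20Rik, Ndrg4, Tnk1, a tyrosine kinase, and Foxc2, a forkhead transcription factor, were -2.89, -2.04, -1.89 and -1.82.

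**Figure D2:**
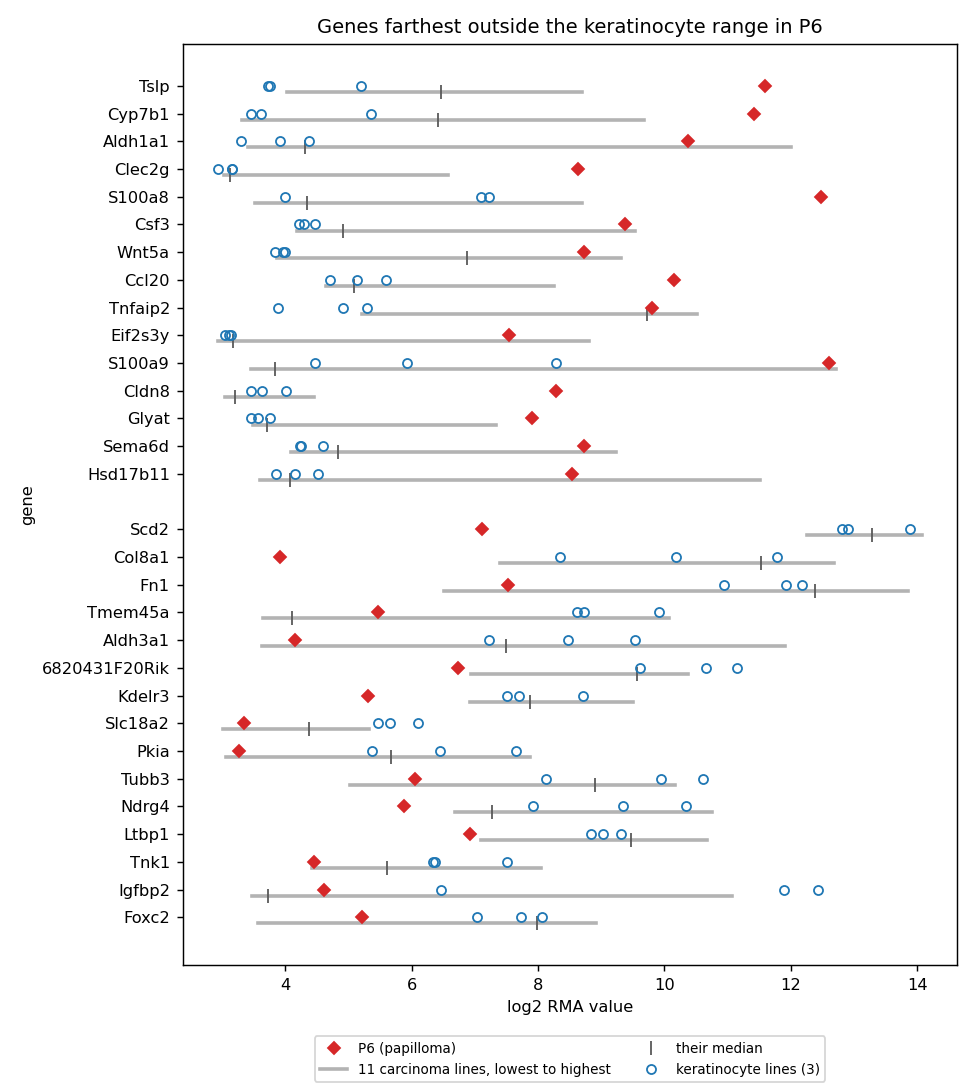
Log2 RMA value (x axis) of the 15 genes farthest above and the 15 farthest below the keratinocyte range (y axis), with P6 as a diamond, the 11 carcinoma lines with Cdh1 of 8 or more as a bar from lowest to highest with their median, and each keratinocyte line as a circle. Tslp at 11.59 in P6 and Scd2 at 7.12 lie clear of every other line drawn.

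Immune signals were the list with the highest share above the range by 1 or more among the 28 lists. At any distance, however, its 17 of 28 was a lower share than those of 3 other lists. These were the ERK list (14 of 19), the simple and mucosal keratins (5 of 7) and the hypoxia list (13 of 20). Of 28 tested chemokine, cytokine and S100 genes, 10 were above the range by 1 or more (35.7%, against 2.24% of all genes tested) and 0 below. The median difference of P6 from the keratinocyte mean was 1.29 over this list, against 0.01 over all genes tested. Besides Tslp, the 10 are S100a8, S100a9, Csf3, Ccl20, Il1a, Ccl2, Lcn2, Cxcl5 and Il1f9.

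Among the growth factors and interleukins, Csf3, the granulocyte colony-stimulating factor, had 9.38 in P6, 4.18 to 9.54 in the 11 carcinoma lines, and 4.21, 4.29 and 4.47 in C5N, NK and the third line. Il1a, which encodes interleukin-1 alpha and is stored by keratinocytes, had 10.94 in P6, a median of 8.56 in the carcinoma lines, and 3.86, 4.25 and 7.95 in the keratinocyte lines. Il1f9, an epidermal cytokine of the interleukin-1 family, had 7.84 in P6, at most 6.69 in the carcinoma lines, and 4.05, 6.84 and 5.50 in the keratinocyte lines. Csf3 was dark in every keratinocyte line, whereas Il1a had an intermediate value in the third line, and Il1f9 was above the range in 0 of the 11 carcinoma lines.

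The chemokines split by how far the keratinocyte lines already made them. Ccl20, which attracts dendritic cells and T cells, had 10.15 in P6, a median of 5.08 in the carcinoma lines, and 5.14, 4.70 and 5.59 in C5N, NK and the third line. Ccl2, a monocyte attractant, had 8.80 in P6, a median of 6.95 in the carcinoma lines, and 5.68, 5.24 and 6.51 in the keratinocyte lines. Cxcl5, a neutrophil attractant, had 12.83 in P6, a median of 12.59 in the carcinoma lines, and 5.28, 11.72 and 11.77 in the keratinocyte lines. Ccl20 was above the range in 2 of the 11 carcinoma lines, and Cxcl5 in 8. Ppbp and Cxcl3, neighbours of Cxcl5 that also encode CXC chemokines, were above the range by 1.58 and 1.10, with 8 and 10 of the carcinoma lines on that side. The genes Ppbp and Cxcl3 were chosen after their values were seen.

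S100a8 and S100a9, which encode the paired subunits of calprotectin, were high in P6. S100a8 had 12.48 in P6, 3.52 to 8.69 in the carcinoma lines, and 3.99, 7.09 and 7.22 in C5N, NK and the third line. S100a9 had 12.61 in P6, 3.45 to 12.71 in the carcinoma lines, and 4.47, 5.93 and 8.28 in the keratinocyte lines. For S100a8 P6 led all other lines by 3.79, while for S100a9 at least 1 carcinoma line was above P6. Lcn2, which encodes the iron-scavenging protein lipocalin, had 7.23 in P6, against 5.18, 3.44 and 3.33.

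**Figure D3:**
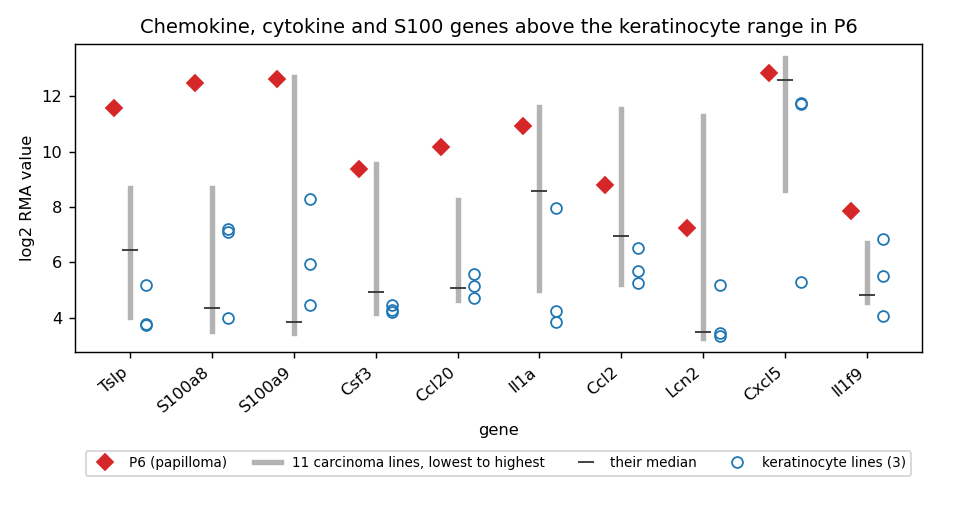
Log2 RMA value (y axis) of the 10 chemokine, cytokine and S100 genes above the keratinocyte range in P6 (x axis), with P6 as a diamond, the 11 carcinoma lines with Cdh1 of 8 or more as a bar with their median, and the 3 keratinocyte lines as circles. P6 is above all 3 circles for each gene, and above the top of the bar for Tslp, S100a8, Ccl20 and Il1f9.

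A list of NF-kB target genes was drawn up after these values were seen, so its count describes the choice and supports no conclusion. Of its 24 tested genes 14 were above the range by 1 or more (58.3%, beside 2.24% of all genes tested) and 0 below. Tslp, Csf3, Ccl20, Il1a, Lcn2 and Cxcl5 among them were already counted in the list above. Apart from the cytokines above, the 14 include regulators of the pathway itself. Nfkbia, the inhibitor that holds NF-kB in the cytoplasm, had 12.30 in P6, against 10.50, 10 and 10.89 in C5N, NK and the third line. Bcl3, a nuclear partner of NF-kB, had 7.63 in P6, against 5.06, 4.91 and 5.73, and Zc3h12a, an RNase that degrades cytokine messages, had 7.52, against 5.68, 5.44 and 6.38. The secreted factors Lif and Cx3cl1 had distances of 2.15 and 2.84, and the subunit genes Rel and Relb lay inside the range. A list of antimicrobial proteins, also drawn up after values were seen, had 6 of 13 above the range by 1 or more. Of these, S100a8, S100a9 and Lcn2 were already counted above. Among the 6, Defb3, a beta-defensin, had 6.11 in P6, at most 3.59 in the 11 carcinoma lines, and 3.44, 3.69 and 3.39 in the keratinocyte lines. None of the 18 tested genes of the list of interferon response and MHC class I was outside the range by 1. At any distance 4 were above it and 1 below, and the list's median difference was -0.13. The list is not complete. Mndal, Parp9, Ifi204 and Ifi27l2a, interferon-inducible genes outside it, were above the range by 3.99, 1.63, 1.54 and 1.28. They were named after their values were seen.

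Among the keratins 3 were above the range by 1 or more and 0 below by as much. Of the 9 basal and proliferative keratins Krt15 was the 1 above by that much, with 9.57 in P6, 4.62 to 8.72 in the 11 carcinoma lines, and 7.30, 6.80 and 6.19 in C5N, NK and the third line. Of the 7 tested simple and mucosal keratins 2 were above it by 1 or more (28.6%, beside 2.24% of all genes tested). For the basal and proliferative keratins the share was 11.1%. Krt13 was below the array median in all 3 keratinocyte lines, so it was tested only through P6. Krt13, a mucosal keratin that appears in mouse skin papillomas, had 7.31 in P6, 4.01 to 6.51 in the carcinoma lines, and 4.34, 4.41 and 4.14 in the keratinocyte lines. Krt18, a keratin of simple epithelia, had 11.32 in P6, a median of 12.65 in the carcinoma lines, and 9.45, 3.88 and 8.57 in the keratinocyte lines. Krt13 and Krt15, which are neighbours in the genome, were higher in P6 than in every other line, by 0.08 and 0.85. The 2 other probe sets of Krt13 were above the range by less than 1. Krt18 was above the range in 10 of the 11 carcinoma lines. Krt8, the usual partner of Krt18, stayed dark in P6, with 5.17 against 5.04, 5.03 and 4.89, although its median in the carcinoma lines was 11.57. Krt4, the partner of Krt13, had 5.85 in P6, against 4.49, 5.22 and 4.39, a distance of 0.63.

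The other keratins measured lay within 1 unit of the range. Krt16, a keratin of hyperproliferative epidermis, had 13.50 in P6, against 8.38, 12.68 and 12.28, a distance of 0.82. Krt6a and Krt6b, its partners, had 13.74 and 13.95 in P6, inside the range, since NK had 13.74 and 13.98. Krt17 had 12.64 in P6, against 13.23, 13.10 and 13.01, a distance of -0.37. Krt1, a keratin of differentiating cells, Krt7, Krt23, Krt79 and Krt80 were inside the range, and Krt78 was 0.10 above it. None of the 20 tested epithelial junction genes, the 13 desmosome genes or the 21 basal epidermal and stem cell regulators was outside the range by 1 or more. These lists are not complete. Outside them, the junction genes Cldn8 and Nectin3 were above the range by 4.28 and 1.79, and the cadherin gene Cdh13 was below it (distance -1.21). The transcription factor genes Cebpa, Grhl1 and Zfp750 were above it by 2.14, 1.12 and 1.05. Nectin3, Cebpa and Zfp750 were named after their values were seen.

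Squamous differentiation genes gave 2 of 27 above the range by 1 or more (7.41%, beside 2.24% of all genes tested) and 0 below by as much. Both encode small proline-rich proteins of the cornified envelope: Sprr2f had 5.82 in P6, against 3.19, 3.32 and 3.33, and Sprr2d had 8.10, against 5.0, 6.67 and 5.22. Each was above the range in 2 of the 11 carcinoma lines. Among mouse skin tumour genes, Gjb2, which encodes the gap junction protein connexin 26, had 7.95 in P6, a median of 4.0 in the carcinoma lines, and 3.95, 5.07 and 4.33 in the keratinocyte lines. Apart from Gjb2 and Krt13, the genes of that list were inside the range or less than 1 unit from it: Hmga2, a chromatin protein, had 10.49 in P6, against 4.98, 8.03 and 10.86, and Ptgs2, the inducible cyclooxygenase, had 10.96, against 4.94, 12 and 11.65. Cd44 (12.50), Gja1 (13.63), Itga6 (12.31), Itgb4 (12.01), Met (11.72), Odc1 (11.01) and Fosl1 (7.95) were inside the range too. Slpi, a protease inhibitor, was above it by 0.58, Tgfb1 by 0.47 and Igfbp3 by 0.26.

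None of the 11 tested EGF family and ErbB genes was outside the range by 1 or more. Hbegf, an EGF receptor ligand, had 10.28 in P6, against 6.74, 8.91 and 9.53, a distance of 0.75, and Tgfa had 9.43, against 8.13, 8.07 and 8.96, a distance of 0.47. Ereg was 0.16 above the range, Erbb2 0.08 above it, and Egfr was below it (distance -0.29), although another probe set of Egfr was above it by 1.25, while Btc, Epgn, Nrg1 and Erbb3 were inside. Errfi1, Fgf22 and Stat3 were inside the range too, and Lrig3 had a distance of -0.08. Of 19 tested genes of the ERK pathway and its feedback, 3 were above by 1 or more (15.8%, beside 2.24% of all genes tested). At any distance 14 were above the range, beside 23.7% of all genes tested, and 0 below. The median difference was 0.82. Etv5, an ETS factor induced by ERK, had 8.12 in P6, a median of 7.08 in the 11 carcinoma lines, and 5.31, 5.13 and 6.13 in the keratinocyte lines. The ERK phosphatase genes Dusp5 and Dusp4 had 9.57 and 8.19 in P6, and Dusp4 was above the range in all 11 carcinoma lines. Of the AP-1 factors, 0 of 10 were outside by 1 or more.

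No cell cycle gene of the lists was outside the range by 1 or more: 0 of 15 cell cycle inhibitors and D cyclins and 0 of 23 mitosis and replication genes, whose median differences were 0.18 and -0.21. The lists are not complete. Outside them, the cell division genes Psrc1, Nek2 and Anln were below the range, with distances of -1.66, -1.35 and -1.06. Nek2 and Anln were named after their values were seen, and such genes outside the lists were not counted on either side. Cdkn2a, which encodes cell cycle inhibitors, had 5.27 in P6, a median of 7.73 in the 11 carcinoma lines, and 5.35, 7.97 and 6.12 in C5N, NK and the third line. Cdkn2c had 7.47 in P6, against 10.15, 8.70 and 8.09, a distance of -0.62. Cdkn1a, at 11.24 in P6, was inside the keratinocyte range and above the highest of these carcinoma lines, 11.06. Cdkn1b, Cdkn2b, Cdkn2d, the D cyclins Ccnd1, Ccnd2 and Ccnd3, Cdk6, Ccne2 and Rb1 were inside the range, and Cdk4 was level with its upper end. Ccne1 was 0.59 above it and Rbl1 0.40.

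Genes of the TGF-beta, activin and BMP list lay on both sides, with 5 of 24 above the range by 1 or more (20.8%) and 1 below (4.17%). Over all genes tested these shares were 2.24% and 0.902%. Bmp2, a bone morphogenetic protein, had 9.14 in P6, a median of 7.17 in the 11 carcinoma lines, and 4.74, 6.53 and 4.90 in the keratinocyte lines. Tgfb3 had 8.30 in P6, against 4.52, 4.29 and 6.29. Id3 and Id2, target genes of BMP signalling, had 11.16 and 11.54 in P6, with distances of 1.81 and 1.60. The latent TGF-beta binding proteins were opposed: Ltbp2 had 8.96 in P6, against 4.69, 3.74 and 6.28, and Ltbp1 had 6.93, against 8.84, 9.32 and 9.02. Fst, an activin antagonist, had 12.24 in P6, a distance of -0.35. Of the 8 tested EMT transcription factors, Foxc2 was below the range by 1 or more (distance -1.82) and Twist2 was above it, with 7.03 in P6, 7.17 to 10.71 in the carcinoma lines, and 4.87, 4.99 and 5.02 in the keratinocyte lines. For Twist2 P6 lay between the groups, since the lowest of the 11 carcinoma lines was above it.

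Of 19 tested genes of proteases and plasminogen activation, 3 were above the range by 1 or more (15.8%) and 2 below (10.5%). Beside these, 2.24% and 0.902% of all genes tested were so, and the list's median difference was -0.16. Plau, the urokinase plasminogen activator, had 10.83 in P6, 4.47 to 10.48 in the 11 carcinoma lines, and 7.91, 5.84 and 7.33 in C5N, NK and the third line. The collagenase gene Mmp13 had 6.32 in P6, against 3.0, 3.26 and 4.08, and the neighbouring stromelysin gene Mmp3 had 6.37, against 4.20, 4.66 and 5.07. Plau was higher in P6 than in every other line, by 0.35. The 2 genes below the range encode metalloproteinase inhibitors: Timp2 had 8.79 in P6, 10.96 to 13.09 in the carcinoma lines, and 11.71, 10.44 and 12.40 in the keratinocyte lines. Timp1 had 7.81 in P6, 10.04 to 11.87 in the carcinoma lines, and 9.28, 9.17 and 9.87 in the keratinocyte lines. Both inhibitors were lowest in P6 among all 26 lines, and all 5 other probe sets of Timp2 were below the range.

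To show the sequence behind genes that were high together, promoters are given for 5 of the higher genes that hold an AP-1 motif, the letters TGANTCA, which read the same on both strands. The genes were chosen after the motif was searched, for their place in the cytokine, protease, differentiation and retinoid groups. Each window runs from 250 bases before to 50 after the gene start in RefSeq on GRCm38.p6, 5′ to 3′, with the motif in capitals. They are Il1a (chr2:129309923-129310222, minus strand), Mmp13 (chr9:7272264-7272563, plus), Mmp3 (chr9:7445572-7445871, plus), Sprr2f (chr3:92364937-92365236, plus) and Aldh1a1 (chr19:20492333-20492632, plus).
Il1a promoter: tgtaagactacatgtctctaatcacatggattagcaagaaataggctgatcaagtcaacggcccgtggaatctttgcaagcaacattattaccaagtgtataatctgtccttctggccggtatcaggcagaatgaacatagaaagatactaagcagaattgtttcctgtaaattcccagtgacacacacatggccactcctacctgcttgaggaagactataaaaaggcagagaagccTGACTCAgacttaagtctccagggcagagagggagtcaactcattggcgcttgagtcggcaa
Mmp13 promoter: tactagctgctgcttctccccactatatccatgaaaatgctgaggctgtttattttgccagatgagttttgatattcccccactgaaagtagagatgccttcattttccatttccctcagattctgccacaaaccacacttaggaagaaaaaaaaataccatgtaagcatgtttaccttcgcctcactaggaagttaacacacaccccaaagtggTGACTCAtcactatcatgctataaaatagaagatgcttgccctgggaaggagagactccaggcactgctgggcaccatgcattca
Mmp3 promoter: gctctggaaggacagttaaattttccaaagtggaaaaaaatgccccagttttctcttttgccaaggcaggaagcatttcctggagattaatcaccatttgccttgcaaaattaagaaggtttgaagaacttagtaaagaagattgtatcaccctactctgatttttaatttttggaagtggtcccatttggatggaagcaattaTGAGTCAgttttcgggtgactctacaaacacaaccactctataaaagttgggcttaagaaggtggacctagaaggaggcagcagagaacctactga
Sprr2f promoter: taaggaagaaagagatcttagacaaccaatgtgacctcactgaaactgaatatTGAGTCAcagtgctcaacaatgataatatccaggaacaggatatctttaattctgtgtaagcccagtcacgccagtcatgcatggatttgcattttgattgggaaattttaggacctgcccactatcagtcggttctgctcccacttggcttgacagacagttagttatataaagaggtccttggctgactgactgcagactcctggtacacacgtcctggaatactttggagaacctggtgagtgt
Aldh1a1 promoter: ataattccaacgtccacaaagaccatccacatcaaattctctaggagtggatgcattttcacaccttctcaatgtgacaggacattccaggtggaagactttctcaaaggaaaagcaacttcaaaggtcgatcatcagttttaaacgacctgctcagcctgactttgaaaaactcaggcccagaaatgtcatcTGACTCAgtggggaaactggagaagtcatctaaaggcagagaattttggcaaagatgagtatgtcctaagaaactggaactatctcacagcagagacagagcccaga
The first base of the motif lay 12, 35, 46, 197 and 57 bases before the start in these genes. The motif was in 21 of the 202 higher genes with a promoter window (10.4%), in 2 of the 80 lower ones (2.5%) and in 493 of the 9596 genes tested that have one (5.14%). A match is a run of letters and shows no binding.

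Metabolic genes were spread over several lists. Over all genes tested, 2.24% were above the range by 1 or more and 0.902% below. Of 26 NRF2 and glutathione genes, 3 were above the range by 1 or more (11.5%) and 1 below (3.85%). Akr1b8, an aldose reductase family member, had 12.82 in P6, a median of 10.13 in the 11 carcinoma lines, and 7.65, 7.55 and 10.71 in the keratinocyte lines. Gstp1, a glutathione transferase, had 13.69 in P6, against 11.07, 12.11 and 12.58. The third is Aldh1a1, and the 1 below is Aldh3a1. Of 20 hypoxia and glycolysis genes, 2 were above by 1 or more and 0 below, 13 were above the range at all, and the median difference was 0.92. Egln3, an oxygen-sensing prolyl hydroxylase, had 9.79 in P6, against 4.39, 4.26 and 7.99, and Epas1, a hypoxia-inducible factor, had 9.12, against 4.36, 7.78 and 7.30. Pkm, the pyruvate kinase of glycolysis, stood apart from these: it had 10.97 in P6, 12.46 to 13.53 in the carcinoma lines, and 12.79, 12.54 and 12.43 in the keratinocyte lines. P6 was the lowest of all 26 lines for Pkm, by 1.47.

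Lists of retinoid metabolism and of sterol and fatty acid synthesis were also drawn up after values were seen, so their counts describe the choice. Of all genes tested, 2.24% were above the range by 1 or more. In the retinoid list, 4 of 10 tested genes were above the range by 1 or more: besides both Aldh1a genes, the retinaldehyde reductase Dhrs3 had 9.44 in P6, against 6.11, 7.01 and 6.64, and the retinol-uptake receptor Stra6 had 9.89, against 4.98, 5.17 and 8.10. In the other, 3 of 27 were above by 1 or more, 16 were above at all, and the median difference was 0.81. Tm7sf2, a sterol reductase, had 10.63 in P6, against 7.28, 7.33 and 7.04, and Acss2, which makes acetyl-CoA from acetate, had 9.24, against 7.23, 5.50 and 7.29. Insig1, the sterol-sensing regulator, had 9.67 in P6, against 8.14, 7.19 and 8.26. Scd2 was the 1 gene of this list below the range by 1 or more.

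Of the remaining lists, counted at 1 or more beyond the range, the Notch pathway gave 1 of 15 above and 0 below, the Wnt pathway 2 of 24 above and 0 below, and the IGF axis 0 of 12 above and 1 below, which is Igfbp2. Beside these counts of 1 or 2 genes, 2.24% of all genes tested were above by as much and 0.902% below. Notch3, a Notch receptor, had 7.34 in P6, 3.98 to 7.24 in the 11 carcinoma lines, and 4.57, 4.24 and 5.07 in the keratinocyte lines. Wnt6, a Wnt ligand, had 7.44 in P6, against 6.01, 6.12 and 5.95. Both were higher in P6 than in any other line, by 0.10 and 0.27.

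**Figure D4:**
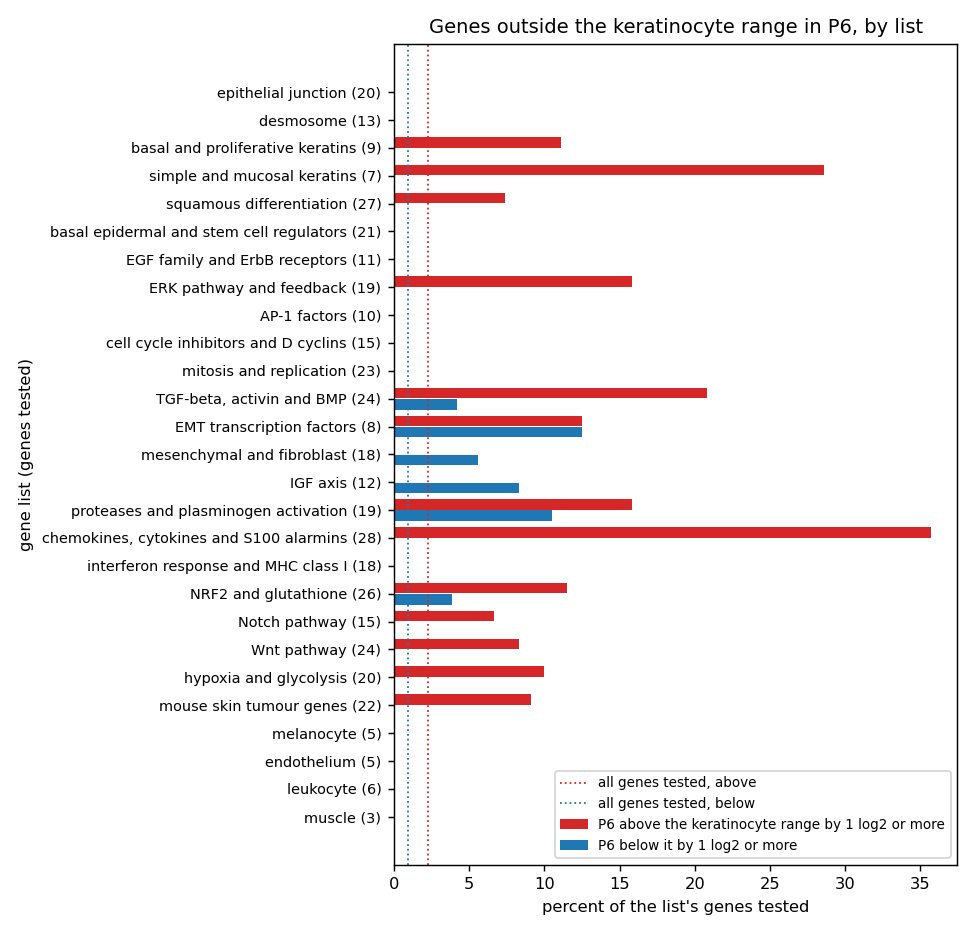
Percent of the tested genes of each list shown (y axis, with the number tested) that lay above or below the keratinocyte range in P6 by 1 log2 or more (x axis), with dotted lines for all genes tested. The 4 lists added after values were seen are not drawn, nor is 1 of the 28 others. Chemokines, cytokines and S100 alarmins have 35.7% above, and the dotted lines stand at 2.24% and 0.902%.

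The carcinoma lines were then placed against the same keratinocyte range. Because P6 and the carcinoma lines are set against the same 3 keratinocyte lines, an unusual keratinocyte value moves both, and the counts are a description. Of the 11 carcinoma lines with Cdh1 of 8 or more, a median of 5 lay above the range for the genes higher in P6, against 2 for all genes tested. For the genes lower in P6 a median of 6 lay below it, against 2. In 124 of the 266 higher genes (46.6%) and 54 of the 107 lower genes (50.5%), 6 or more of the 11 lines shared the side of P6, against 17.1% and 18.6% of all genes tested. With 1 unit or more asked of the carcinoma lines too, these were 33 genes (12.4%) and 12 genes (11.2%), against 1.1% and 1.22%. These counts take each line once, although lines that share a name may be related. With the lines of each shared name averaged, the median share on the side of P6 was 42.9% for higher and 57.1% for lower genes. It was 45.5% and 54.5% with every line counted.

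The lines differed in how far they followed P6. MSCP5 shared the side of 69.2% of the higher genes (21.2% of all genes tested lay above the range in it), and MSCb1 of 65.4% (33.2%). PDV shared it for 33.5% (19.7%). Among the lower genes B9 shared 82.2%, against 27.5% of all genes tested. MSCP5 was also the line nearest to P6 over all genes. The carcinoma lines with Cdh1 under 8 gave the same medians, 5 and 6 of 11 lines. Their share of genes with 6 or more lines on the side was 48.5% for the higher genes, beside 26.6% of all genes tested, and 52.3% for the lower genes, beside 21.7%.

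**Figure D5:**
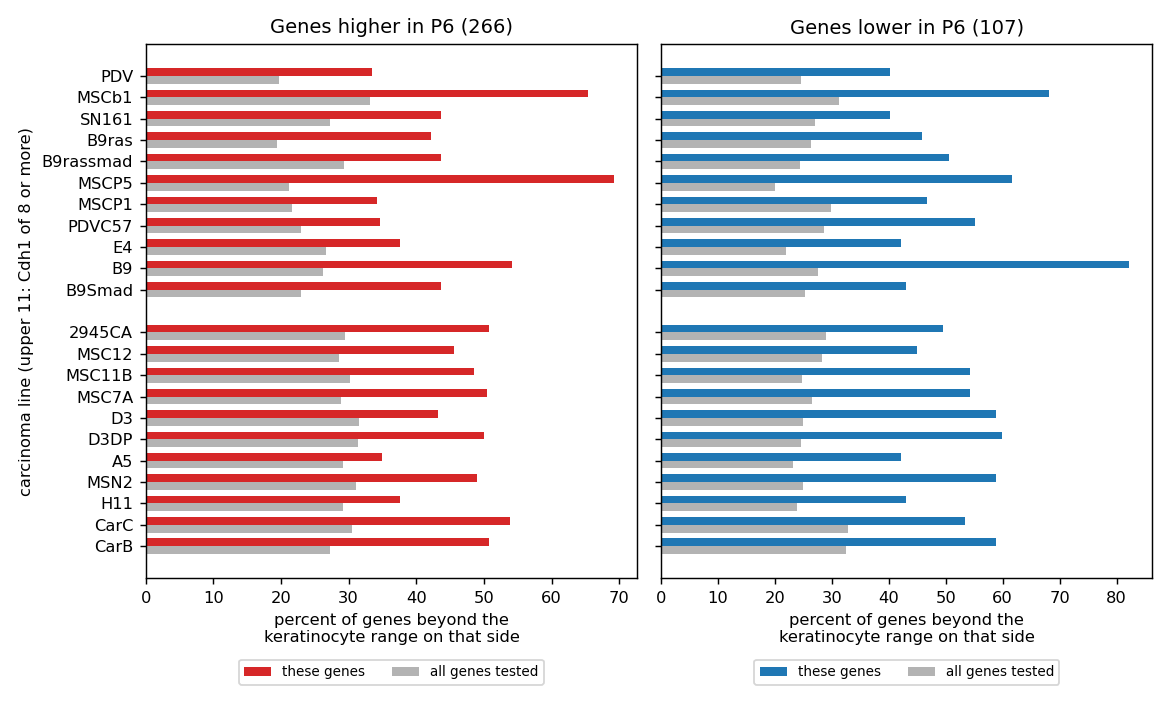
Percent of the 266 genes higher (left) and the 107 genes lower (right) in P6 that lie beyond the keratinocyte range on the same side in each carcinoma line (y axis), with the percent of all genes tested in grey. MSCP5 has 69.2% of the higher genes and B9 has 82.2% of the lower genes.

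All 11 lines shared the side of P6 for 12 higher genes (0.657% of all genes tested had all 11 above) and 12 lower genes (0.86% had all 11 below). Ntn1, which encodes the guidance cue netrin, had 8.95 in P6, 5.54 to 11.77 in the 11 carcinoma lines, and 5.42, 4.50 and 4.89 in C5N, NK and the third line, although its 1 other probe set was not above the range. AA467197, Twist2, Insig1, Ammecr1, Gm9776, Styk1, a receptor-like kinase, and Rere, a nuclear corepressor, were next by distance, between 2.48 and 1.17. The 1 other probe set of Ammecr1 and the 2 of Rere were not above the range either. Among the lower genes, Sirpa, which encodes a receptor for the self signal on other cells, had 5.98 in P6, 5.60 to 7.60 in the carcinoma lines, and 7.69, 7.89 and 8.41 in the keratinocyte lines. Mtus1, a microtubule-associated protein, had 4.39 in P6, 3.51 to 5.39 in the carcinoma lines, and 7.22, 6.48 and 6.08 in the keratinocyte lines. Psrc1, a spindle protein, had 6.70 in P6, a median of 5.43 in the carcinoma lines, and 9.78, 8.36 and 9.71 in the keratinocyte lines. For Mtus1 and Psrc1 most of these carcinoma lines were beyond the range by 1 or more, 10 and 11 of them. The rest of the 12 were Slc18a2, Dcun1d4, Toe1, 2900026A02Rik, Popdc3, Casq2, Lypla1, Lpcat2 and Triap1, of which the last 4 were named after their values were seen.

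No counted carcinoma line shared the side of P6 for 12 higher genes (27.2% of all genes tested had none above) and 4 lower genes (24.5% had none below). Sptssb, a subunit of the enzyme that starts sphingolipid synthesis, had 7.52 in P6, at most 3.86 in the 11 carcinoma lines, and 3.41, 4.32 and 3.21 in C5N, NK and the third line. Art4, an ADP-ribosyltransferase family member, had 7.64 in P6, at most 4.25 in the carcinoma lines, and 3.94, 4.24 and 5.34 in the keratinocyte lines. Defb3, described above, 2610528A11Rik, Them5, an acyl-CoA thioesterase, Aldh1l1, a folate enzyme, Phactr2 and Grhl1, an epithelial transcription factor, were next, with distances between 2.71 and 1.12. The 1 other probe set of Aldh1l1 was not above the range. Grhl1 had 8.89 in P6, at most 7.71 in the carcinoma lines, and 7.57, 7.78 and 5.83 in the keratinocyte lines. The 4 lower genes are Timp2, Timp1, Pkm and Cdh13, which encodes an unusual cadherin anchored by lipid, with 6.54 in P6, 8.09 to 10.61 in the carcinoma lines, and 7.76, 8.10 and 9.32 in the keratinocyte lines.

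P6 lay outside all 25 other lines by 1 unit or more in 34 higher and 7 lower genes of the 11866 tested. The same count was not made for any other line, so these numbers have no background. Cldn8 led by 3.83, S100a8 by 3.79, Sptssb by 3.20, Tslp by 2.89, the kallikrein protease gene Klk13 by 2.46, Defb3 by 2.35, the serine protease gene Tmprss11g by 2.34 and Art4 by 2.30. Klk13 had 7.28 in P6, at most 4.83 in the 11 carcinoma lines, and 4.07, 3.96 and 4.40 in the keratinocyte lines. The 7 lower genes were Scd2 (-4.81), Col8a1 (-3.48), Timp2 (-1.65), Pkm (-1.47), Sec24d (-1.42), a coat protein of secretory vesicles, Timp1 (-1.35) and Kdelr3 (-1.18).

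With 1 papilloma array, limma fitted to P6 and the 3 keratinocyte lines called 0 genes at an adjusted p under 0.05, in either direction. Its lowest adjusted p was 0.348, and 442 genes (3.72%) had an unadjusted limma p under 0.05. A limma fit of all 26 lines in 4 groups, which assumes that P6 varies like the carcinoma lines too, called 25 genes higher (0.211%) and 2 lower (0.0169%). In that fit Cldn8 differed by 4.60 (limma, adjusted p = 1.26e-08), Tslp by 7.36 (adjusted p = 0.0105), Scd2 by -6.08 (adjusted p = 1.06e-06) and Pkm by -1.62 (adjusted p = 0.0434). The same contrast chose the genes, so these p-values add no support for them. Nothing in the labels shows separate cultures of a line, so p-values measure only the spread between lines.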

How the data were processed

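Per the labels, Trizol-extracted, column-cleaned RNA of log-phase lines was hybridised as biotinylated cRNA, 1 array per line. The deposited table holds log2 values, for which the submitters' processing notes name RMA as the authors' method. The RMA software and its version are not given in the sources. RMA equalises the distributions of the arrays (medians 5.04 to 5.15) and so hides any difference in the amount of RNA per cell. The table has 45037 probe sets, with 34945 named by 1 gene symbol, 932 by several and 9160 unnamed here. A current RefSeq gene ID was found for 34741. The number of arrays limits the precision.

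Each of 18193 genes was represented by its probe set of highest mean over 26 arrays, and 11866 with a value above the array median on 1 or more of the 4 arrays of P6 and the keratinocyte lines were tested. Carcinoma lines were counted by the value of 1 Cdh1 probe set. Lines were grouped by cell type label. The genotype the labels give for 2 of the keratinocyte lines is not reported here. limma 3.58.1 (lmFit, eBayes; R 4.3.3) was used with Benjamini-Hochberg adjustment over all genes tested. Tables and figures were made with Python 3.11.15 and pandas 2.3.3. On simulated data with 200 of 11866 genes changed, the fit of 4 arrays recovered 0% of changes of 2, 40.6% of 4 and 87.7% of 8 log2, and 9 of its 101 calls were false. The fit of 26 arrays recovered 39.7%, 76.9% and 91.7%, and 10 of its 151 calls were false.

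The members and the gene lists were chosen with earlier results of these data known, and 4 lists were added after values were seen. The genes named are the 15 farthest from the range each way, up to 4 per list each way, all measured members of the lists of keratins, cell cycle inhibitors, EGF family and skin tumour genes, up to 8 each way shared with all or none of the counted carcinoma lines, and up to 8 each way where P6 lies outside all other lines. Alternatives changed the filter, the probe set of a gene, the centring, the lines, the distance and the fit.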

Additional observations from a re-analysis of the deposited data

Results flagged for a closer look

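Probe sets with no gene name here were left out of the counts of genes. Of the 2921 that passed the same filter, 199 (6.81%) were above the keratinocyte range in P6 by 1 log2 or more and 22 (0.753%) below it, beside 2.24% and 0.902% of the named genes. The shares are not like for like. Every unnamed probe set was counted, while each named gene was counted once, by its probe set of highest mean. The 199 had a median distance of 1.45 and a median value of 7.04 in P6, and 88 of them were below the array median in all 3 keratinocyte lines. Those 88 passed the filter only through P6. In the 11 carcinoma lines with Cdh1 of 8 or more, between 1.06% (MSCP5) and 13.1% of the unnamed probe sets lay above the range by as much.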

How the results depend on the processing

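No paired analysis was possible because replicate numbers were given only in the order of deposition and P6 has 1 array. With 3 other filters, 2 other choices of probe set and each array centred on its median, the higher genes numbered 243 to 275 and the lower genes 106 to 126. At 2 log2 or more they numbered 80 and 11. Leaving out 1 keratinocyte line at a time, where fewer lines make a narrower range, gave 369 to 672 higher and 201 to 387 lower genes. The largest counts, 672 and 387, were those without the third keratinocyte line, whose label and flag disagree.

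limma called 0 genes in every alternative but the fit of all 26 lines in 4 groups, with 25 higher and 2 lower. Unadjusted limma p-values under 0.05 in the 4 arrays were reached by 295 higher and 147 lower genes. The median share of the counted carcinoma lines on the side of P6 was 45.5% for higher and 54.5% for lower genes. It was 18.2% and 9.09% where 1 log2 beyond the range was asked, and 54.5% to 72.7% and 63.6% to 81.8% without 1 keratinocyte line. A Cdh1 minimum of 6, lines with no spindle label, averaged name families, fewer lines of unclear label, another filter and the lines with Cdh1 under 8 (added after seeing the data) moved these shares by less than the spread between lines.

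Of the 82 named members, 81 were still outside by 1 or more with centred arrays, and Dusp4 came to 0.98. Leaving out a keratinocyte line can only widen a member's distance and says nothing of its stability. Of 61 values of other probe sets of 35 named members, 26 were outside by 1 or more, 48 lay on the same side at all, 13 inside the range and 0 on the opposite side. The cause of these differences was not tested. Values near the array median limit how small a difference can be read.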
